A study of Mus musculus with 147 samples.

Results

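Of the 10 genes described here, all but Aldh9a1 encode the mitochondrial machinery that carries long-chain fatty acids into mitochondria and breaks them down. Aldh9a1 encodes an enzyme of carnitine synthesis, and all 10 genes were measured in mouse macrophages and monocytes. They are Cpt1a, Slc25a20 and Cpt2 of the carnitine shuttle, the acyl-CoA dehydrogenases Acadvl, Acadl and Acadm, the trifunctional protein subunits Hadha and Hadhb, the thiolase Acaa2, and Aldh9a1 of carnitine synthesis. The genes were taken by name from a list of the pathway, and all 10 were found among the 50686 gene identifiers of both count tables. The list was chosen with earlier results of these data known, so shares of members set beside those of all genes are descriptions only. Refed mice had 2 h of food after a 12 h fast, and fasted mice had the 12 h fast only. Monocytes and macrophages of adipose tissue, peritoneum, islets, liver (Kupffer cells), colon and brain (microglia) were sorted from them. A separate diet experiment covered microglia and macrophages of islets and peritoneum. Its mice had 8 weeks of high-fat diet and streptozotocin (STZ), which kills pancreatic beta cells, at week 4, the same 8 weeks of diet alone, or normal diet. STZ was given on top of the high-fat diet, so a comparison of STZ mice with normal diet mice holds both changes. No strain, sex, age or genetic change is given for any group in the labels used here, and each refeeding library holds only 400 cells.

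Long-chain fatty acids cross the inner mitochondrial membrane as carnitine esters. CPT1A makes the ester at the outer membrane and is the step that malonyl-CoA inhibits in the fed state, SLC25A20 exchanges the ester for free carnitine, and CPT2 returns the acyl group to coenzyme A inside. Each round of beta oxidation then starts with an acyl-CoA dehydrogenase selected by chain length, continues on the trifunctional protein for long chains, and ends with a thiolase that releases acetyl-CoA. ALDH9A1 oxidizes an aldehyde on the way to carnitine. In liver and muscle, several of these genes are targets of PPAR receptors, which fatty acids activate during fasting.

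Cpt1a spans chr19:3322334-3385733 on the plus strand of mm10, Aldh9a1 chr1:167349991-167368532 on the plus strand and Acadl chr1:66830839-66863277 on the minus strand. Hadha (chr5:30118304-30155162, minus strand) and Hadhb (chr5:30155248-30184593, plus strand) lie head to head with 85 bases between the annotated genes. Exons of Dvl2 on the opposite strand cover 42.9% of the exon bases of Acadvl. Whether reads were assigned by strand is not given in the sources used here, so reads of Acadvl and Dvl2 cannot be told apart there. Promoter window sequences are shown for Cpt1a, Aldh9a1 and Acadl, 5′ to 3′ along each gene. They come from RefSeq (GRCm38.p6) promoter windows of 250 bases before the start that RefSeq gives, cut before any exon annotated inside the window. Windows of the other members are not shown, and Acaa2 has no window here. RefSeq's start of Cpt1a lies 967 bases downstream of the start of the annotated span, so the Cpt1a window lies inside that span, while the windows of Aldh9a1 and Acadl lie upstream of theirs. Capitals mark the nuclear receptor core site AGGTCA or its reverse complement, and sequences in lower case throughout hold neither.
Cpt1a (chr19:3323051-3323284, plus strand): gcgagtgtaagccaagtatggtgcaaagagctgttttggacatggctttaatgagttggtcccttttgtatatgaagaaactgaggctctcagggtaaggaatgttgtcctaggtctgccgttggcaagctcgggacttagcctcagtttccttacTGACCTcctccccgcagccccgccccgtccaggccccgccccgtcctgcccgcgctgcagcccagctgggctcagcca
Aldh9a1 (chr1:167349741-167349990, plus strand): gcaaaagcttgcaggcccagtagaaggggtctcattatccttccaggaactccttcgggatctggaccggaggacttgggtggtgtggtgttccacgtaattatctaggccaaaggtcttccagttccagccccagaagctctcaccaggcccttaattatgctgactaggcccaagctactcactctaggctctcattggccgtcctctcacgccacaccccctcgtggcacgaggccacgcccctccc
Acadl (chr1:66863310-66863559, minus strand): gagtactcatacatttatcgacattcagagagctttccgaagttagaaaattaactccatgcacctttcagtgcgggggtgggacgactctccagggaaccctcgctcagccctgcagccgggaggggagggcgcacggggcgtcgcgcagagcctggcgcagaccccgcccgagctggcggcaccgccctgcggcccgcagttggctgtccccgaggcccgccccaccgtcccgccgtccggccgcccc

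The core site AGGTCA, searched like the other motifs on both strands in the 250 bases before the RefSeq start, stood in 3 of the 9 genes with a window, Cpt1a, Acadvl and Acadm, against 14% of all 32851 promoter windows. In the Cpt1a window it reads TGACCT at bases -94 to -89 before the RefSeq start. The direct repeat of AGGTCA with any 1 base between the copies, and the extended site TCAAGGTCA, both of which contain the core site, matched in 0 of the 9 windows, against 0.0335% and 0.387% of all windows. These are matches of letters in a window and say nothing of binding.

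RNA of sorted cells was amplified by Smart-seq2, giving 110 refeeding libraries of 400 cells each (7915242 to 27315750 counts) and 37 diet libraries of 400 islet macrophages, 5000 microglia or 100000 peritoneal macrophages (11349232 to 34466388 counts). Levels of single genes are given as CPM, each library scaled to the same total by its TMM size. Sums over marker genes and genes of other cell types are CPM of the total counts, without TMM scaling. The 6 microglia markers summed to 17290 to 31190 CPM in refed microglia and 20540 to 28960 CPM in fasted microglia, against at most 3433 CPM in any refeeding library of another population. Of the refed libraries, 4 (islet replicates 1_2 and 3, Kupffer cell replicates 1 and 2) carry a description that names fasting only; they were kept as refed after their titles, and results on them are also given without them. Genes of other cell types were present in several populations, with sums that overlapped between refed and fasted libraries in all 11 lists of other cells. Endothelial genes summed to 874 to 4059 CPM in refed and 1784.0 to 4151 CPM in fasted Kupffer cells, and hepatocyte genes to 301 to 1259 CPM in refed and 282 to 1082 CPM in fasted ones. Acinar genes summed to 11.2 to 15130.0 CPM in refed and 797 to 152300 CPM in fasted colonic macrophages, with fasted replicates 3 and 5 the highest at 152300 and 146500 CPM. B and plasma cell genes reached 16890.0 CPM in refed and 11280.0 CPM in fasted colonic macrophages. Refed microglia replicates 5 and 6 held 1579 and 1084 CPM of neutrophil genes, and replicate 6 also 2574 CPM of B and plasma cell genes. The part of these genes in the levels of the members was not tested, beyond the fits without the libraries named with a result. Normal diet peritoneal replicate 3 stood apart, with a median correlation of log2 CPM of 0.901 to its group, against 0.961 to 0.973 for the other libraries of that group.

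In fasted mice the 10 genes were transcribed in every population, and 8 of the 10 had their lowest mean in microglia. Of these, only Acaa2 and Aldh9a1 differed from the next lowest population (edgeR adjusted p = 0.00179 and 0.00814). The share of all genes with their lowest mean in microglia was not counted. Cpt1a, Acaa2 and Aldh9a1 spanned over 5-fold between populations, while Cpt2, Acadm and Hadha spanned less than 2-fold. Across the 7 fasted populations, 7 of the 10 members differed in edgeR's quasi-likelihood test with Benjamini-Hochberg adjustment over all genes (Cpt1a, Acadvl, Acadl, Acadm, Hadhb, Acaa2 and Aldh9a1). In the same test 49.4% of 16114 genes differed. Over the 21 pairs of populations, 17.1% of all gene and pair combinations passed the threshold of 0.05 on the adjusted p, and the members ranged from 0 of 21 pairs for Cpt2 to 13 of 21 for Aldh9a1. In bulk samples, fewer cells of a type and less RNA per cell cannot be told apart. The labels do not say whether libraries of a group come from separate animals in every case, so the p-values measure the spread between these libraries.

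**Figure D1:**
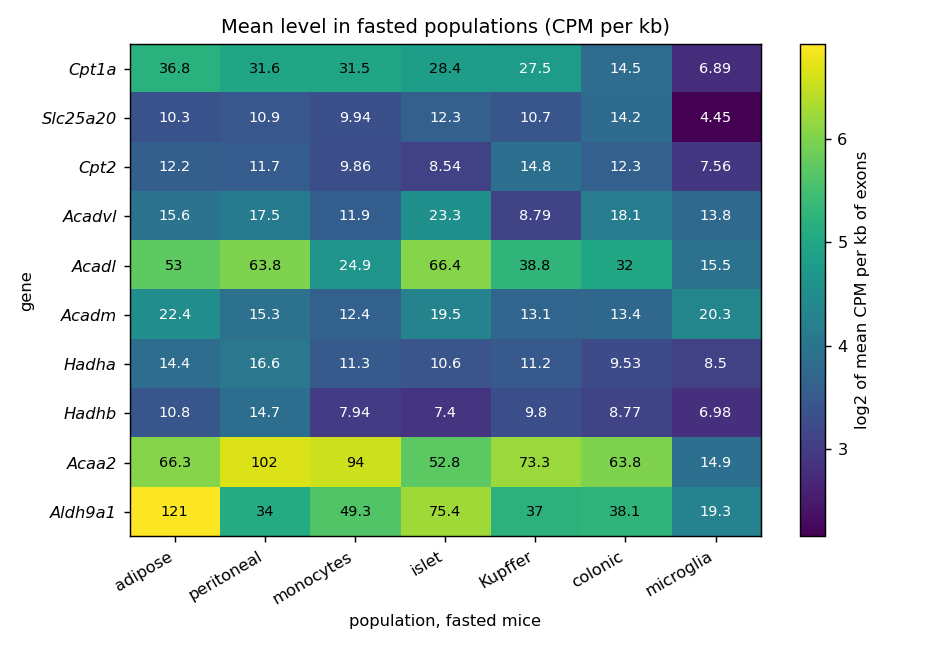
Mean level of the 10 genes in the 7 fasted populations, as CPM per kilobase of merged exons (colour and printed value, n = 6 to 8 libraries per population). Aldh9a1 in adipose tissue macrophages, at 121 CPM per kb, is the highest value, and the microglia values are low for most genes.

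Among the shuttle genes, Cpt1a averaged 281 ± 38.96 CPM in fasted adipose tissue macrophages, 241 ± 41.6 in peritoneal macrophages, 241 ± 107.5 in monocytes, 217 ± 45.9 in islet macrophages, 210.4 ± 118.8 in Kupffer cells, 110.7 ± 42.7 in colonic macrophages and 52.6 ± 42.5 in microglia (SD, n = 6 to 8). Neighbours in this order did not differ beyond their spread, while the ends did. Adipose tissue macrophages exceeded microglia by 2.46 ± 0.47 on the log2 scale (SE, edgeR adjusted p = 0.000109), and 6 of the 21 pairs passed. Slc25a20, the carrier of the inner membrane, ran between 68.7 CPM in colonic macrophages and 21.6 CPM in microglia, and that pair alone passed among its 21 (1.89 on the log2 scale, edgeR adjusted p = 0.0340). Cpt2 lay between 35.4 CPM in Kupffer cells and 18.1 CPM in microglia, and 0 of its 21 pairs passed.

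The dehydrogenases and the later enzymes were ordered differently from each other. Acadl, for long chains, was highest in islet macrophages (133 ± 20.9 CPM, n = 6) and peritoneal macrophages (128 ± 24.5 CPM, n = 8) and lowest in microglia (31.1 ± 16.7 CPM, n = 8), with 11 of 21 pairs called. Acadm, for medium chains, kept 79.4 ± 27.6 CPM in microglia, against 87.8 ± 37.3 CPM in adipose tissue macrophages, and was lowest in monocytes (48.5 ± 7.17 CPM, n = 8 each). Acadvl, for very long chains, ran between 62.6 CPM in islet macrophages and 23.6 CPM in Kupffer cells (4 of 21 pairs). The trifunctional subunits Hadha and Hadhb were highest in peritoneal macrophages, at 144.5 and 96.9 CPM, and lowest in microglia, at 74.2 and 46.1 CPM (1 and 3 of 21 pairs). Acaa2, the thiolase, averaged 154 ± 15.8 CPM in peritoneal macrophages and 22.6 ± 20.3 CPM in microglia, a ratio of 6.8, and the next lowest population, islet macrophages, exceeded microglia by 1.93 ± 0.46 on the log2 scale (edgeR adjusted p = 0.00179).

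Aldh9a1, of carnitine synthesis, averaged 409 ± 112.5 CPM in fasted adipose tissue macrophages, 255 ± 25.4 in islet macrophages, 167 ± 42.6 in monocytes, 129 ± 42.8 in colonic macrophages, 125 ± 31.9 in Kupffer cells, 114.8 ± 22.4 in peritoneal macrophages and 65.2 ± 33.5 in microglia. Adipose tissue macrophages exceeded microglia by 2.69 ± 0.25 on the log2 scale (edgeR adjusted p = 5.34e-12), and the only neighbours that differed were peritoneal macrophages above microglia (0.86 ± 0.24, edgeR adjusted p = 0.00814). Per kilobase of exon, the leading member was Aldh9a1 in adipose tissue and islet macrophages (121 and 75.4 CPM per kb), Acaa2 in Kupffer cells, colonic macrophages, monocytes and peritoneal macrophages (73.3, 63.8, 94 and 101.5 CPM per kb), and Acadm in microglia (20.3 CPM per kb). The 10 members summed to between 363 CPM per kb in adipose tissue macrophages and 118.2 CPM per kb in microglia. The length is that of all annotated exons of a gene merged, 1516 bases for Acaa2 and 8730 for Hadha. The order of the genes per kilobase therefore depends on the annotation.

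Refeeding for 2 h was compared with the fast within each of the 7 populations. Cpt1a had lower means in refed cells of 6 populations, with the widest gap in islets, where Aldh9a1 and Acaa2 were low as well, but no member passed the adjusted threshold in any population. EdgeR's quasi-likelihood test with Benjamini-Hochberg adjustment called 0 of 10 members in each of the 7 comparisons, where it called 0% of all genes in adipose tissue macrophages, colonic macrophages, islet macrophages, Kupffer cells, microglia and monocytes and 0.432% in peritoneal macrophages. At an unadjusted p below 0.05 there were 2 members in adipose tissue macrophages (5.16% of all genes), 1 in colonic macrophages (2.59%), 3 in islet macrophages (2.42%), 0 in Kupffer cells (3.27%), 2 in microglia (2.59%), 1 in monocytes (2.65%) and 3 in peritoneal macrophages (11%). DESeq2 called 2 members in islet macrophages, where it called 0.418% of genes, and 0 elsewhere. On simulated counts of the peritoneal refeeding comparison the share of false calls was above the threshold of 0.05 with DESeq2 and below it with edgeR and voom. Those counts gave all genes the same spread, and DESeq2 was not tried on simulated islet counts. That share therefore does not judge the islet calls of DESeq2. On the measured counts voom with quality weights called 0 in all 7 populations.

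**Figure D2:**
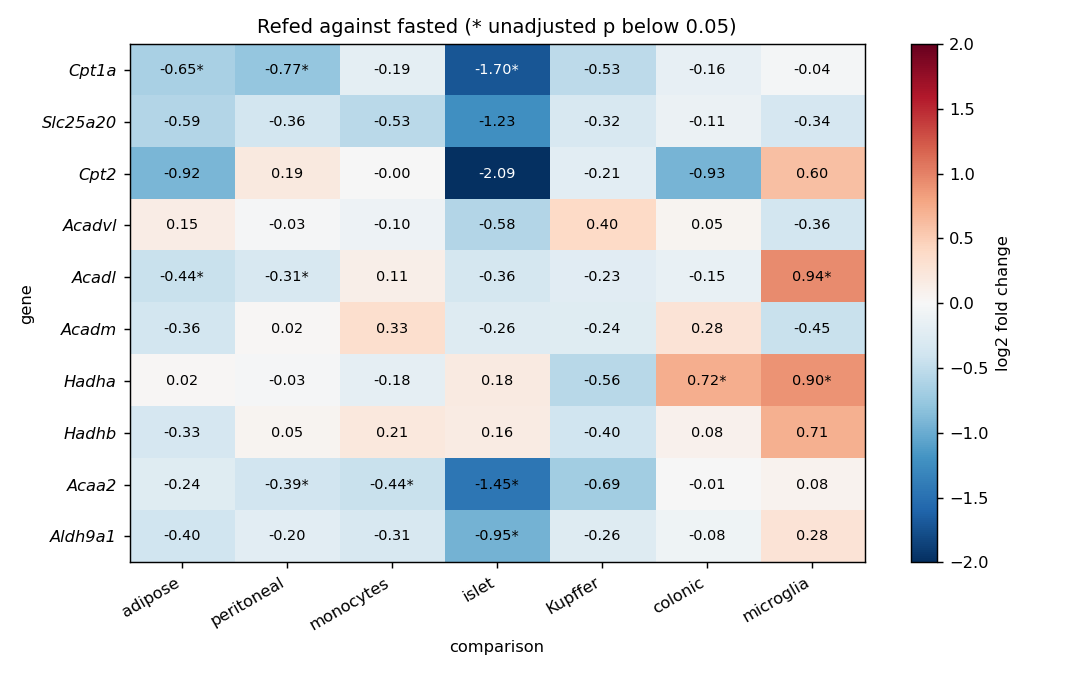
Log2 fold change of each gene in refed over fasted libraries within each of the 7 populations (colour and printed value); an asterisk marks an unadjusted p below 0.05. The islet column holds the 3 marked values Cpt1a, Acaa2 and Aldh9a1, and the microglia and colonic columns hold marked positive values for Hadha.

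The median log2 fold change of the 10 members, refed over fasted, was -0.76 in islet macrophages, beside 0.03 over all genes tested there. It was -0.38 in adipose tissue macrophages (all genes 0.00), -0.29 in Kupffer cells (all genes -0.04), -0.14 in monocytes (all genes -0.02), -0.12 in peritoneal macrophages (all genes 0.00), -0.05 in colonic macrophages (all genes 0.00) and 0.18 in microglia (all genes 0.00). Of the 10 members, 8 were below 0 in islet macrophages (47.1% of all genes), 8 in adipose tissue macrophages (50.2%), 9 in Kupffer cells (53.2%), 7 in monocytes (51.8%), 7 in peritoneal macrophages (50.4%), 6 in colonic macrophages (50%) and 4 in microglia (50.2%).

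In islet macrophages Cpt1a had 19.9 (lowest), 79.3 (median) and 102.3 (highest) CPM in the 7 refed libraries, against 171, 201 and 282 CPM in the 6 fasted libraries. Every refed library lay below every fasted one, the 2 libraries described as fasted included, at 76.2 and 83.4 CPM. Refed cells averaged 68.9 ± 28.5 CPM and fasted cells 217 ± 45.9 CPM (SD), and the log2 fold change was -1.70 ± 0.33 (SE). Its unadjusted p was 0.000267, second of 10059 genes, with an edgeR quasi-likelihood p of 1.0 after Benjamini-Hochberg adjustment. The adjusted p depended on the tool: it was 0.00161 with DESeq2 and 0.00256 with edgeR and no filter on low counts, which called 0.0376%, while the fold change stayed between -1.85 and -1.68 and the adjusted p between 0.00161 and 1.0 over all alternatives. Without the libraries described as fasted it was -1.82 (edgeR adjusted p = 1.0). Replicate 1_2 was the only refed islet library of its cohort, so fasted replicate 1_2 also dropped out of that comparison.

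Aldh9a1 had 100 (lowest), 136 (median) and 166 (highest) CPM in refed islet macrophages, against 209.6, 259 and 288 CPM in fasted ones, again with no overlap. Its log2 fold change was -0.95 ± 0.16, with the smallest unadjusted p of the 10059 genes (5.2e-05) and an edgeR adjusted p of 0.526; over the alternatives the fold change ran between -1.03 and -0.89 and the adjusted p between 1.7e-05 (DESeq2) and 1.0. Cpt1a and Aldh9a1 were 2 of the 4 genes, 0.0398% of those tested, whose refed islet libraries all lay below the fasted ones. Acaa2 had 12.0, 28.4 and 50.7 CPM in refed islet macrophages and 39.6, 74.3 and 129.6 CPM in fasted ones, overlapping at its edges (-1.45 ± 0.48, unadjusted p = 0.0110). Slc25a20 differed by -1.23 ± 0.68 and Cpt2, which was at 0 in 1 library of each group, by -2.09 ± 1.88, both with wide errors. Hadha and Hadhb were slightly above 0, at 0.18 ± 0.35 and 0.16 ± 0.34. Islet endocrine genes summed to 588 to 2827 CPM in refed and 916 to 3068 CPM in fasted islet macrophages, and acinar genes to 90.7 to 635 CPM in refed and 139.8 to 530 CPM in fasted ones, so both lists overlapped between the groups.

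**Figure D3:**
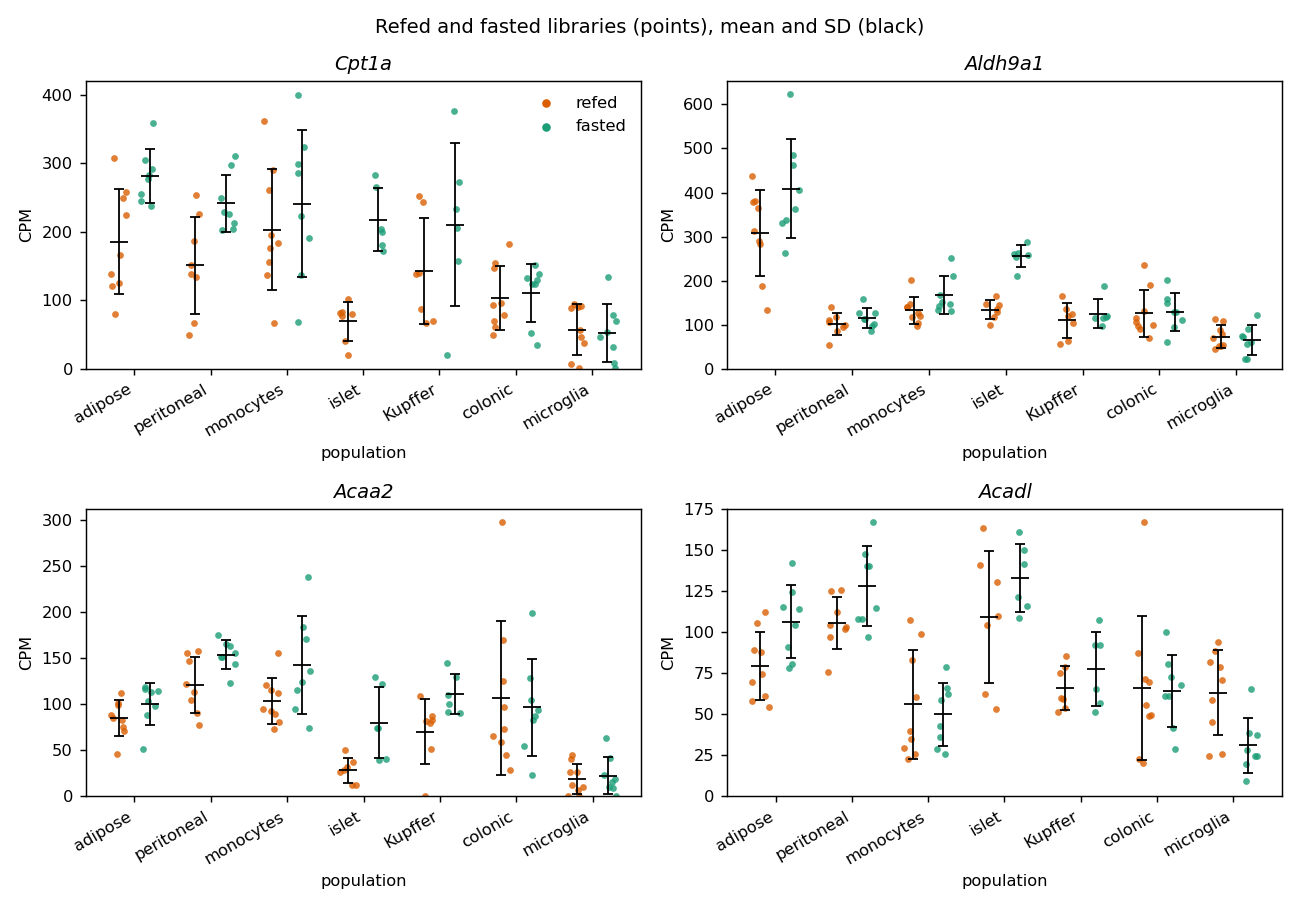
CPM of Cpt1a, Aldh9a1, Acaa2 and Acadl in each refed (left, orange) and fasted (right, green) library of the 7 populations, with mean and SD. In islet macrophages the refed libraries of Cpt1a (19.9 to 102.3 CPM) and Aldh9a1 (100 to 166 CPM) lie below all fasted ones.

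In adipose tissue macrophages Cpt1a had 79.9 (lowest), 167 (median) and 308 (highest) CPM in 9 refed libraries and 238, 279.8 and 358 CPM in 8 fasted ones. Most refed libraries lay below the fasted range, with overlap at the top, and the log2 fold change was -0.65 ± 0.21 (unadjusted p = 0.0079, edgeR adjusted p = 0.745). Acadl had 54.7, 74.7 and 112.1 CPM in refed and 78.4, 109.1 and 142 CPM in fasted cells (-0.44 ± 0.17, unadjusted p = 0.0176). Aldh9a1, the most abundant member there, had 133, 312 and 438 CPM in refed and 264, 385 and 623 CPM in fasted cells (-0.40 ± 0.22).

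In peritoneal macrophages, Cpt1a had 49.5 (lowest), 144 (median) and 254 (highest) CPM in 8 refed libraries and 203, 227 and 310 CPM in 8 fasted ones. The groups overlapped, and the log2 fold change was -0.77 ± 0.26 (edgeR adjusted p = 0.234, between 0.00104 and 0.319 over the alternatives). The lower end of that range came from edgeR with no filter on low counts, under which Cpt1a passed and 1.32% of genes were called. Acaa2 had 78.03, 117.6 and 158 CPM in refed and 123, 154 and 175 CPM in fasted peritoneal macrophages (-0.39 ± 0.16, unadjusted p = 0.0252), and Acadl differed by -0.31 ± 0.14 (unadjusted p = 0.0431). The other 7 members lay between -0.36 (Slc25a20) and 0.19 (Cpt2).

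In monocytes Acaa2 had 73.3, 94.6 and 156 CPM in refed and 74.4, 130.5 and 239 CPM in fasted cells (-0.44 ± 0.21, unadjusted p = 0.0480), and Cpt1a differed by -0.19 ± 0.32. In Kupffer cells Cpt1a had 67.3, 138 and 252 CPM in refed and 20.4, 219 and 376 CPM in fasted cells, a difference of -0.53 ± 0.48 that was within the spread of either group. Hadha differed by -0.56 ± 0.33 there. Acaa2 differed by -0.69 ± 0.63, with 0.337 CPM in refed replicate 8 and 50.99 to 109.3 CPM in the other refed libraries. That library detected 10095 genes, against at least 13302 in the other refed Kupffer libraries, and had a median correlation of 0.69 to its group, against 0.75 or more. Without it Acaa2 differed by -0.45 ± 0.22 (unadjusted p = 0.0635) and Cpt1a by -0.46 ± 0.50. None of the 10 had an unadjusted p below 0.05, with or without that library, and without the Kupffer libraries described as fasted Hadha alone did (-0.87 ± 0.39, unadjusted p = 0.0488, edgeR adjusted p = 1.0). The libraries described as fasted were the only refed Kupffer cells of their cohort, so its fasted libraries also dropped out of that comparison.

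Among members with an unadjusted p below 0.05, those higher after refeeding were Hadha and Acadl. Hadha, which carries the hydratase and dehydrogenase activities of the trifunctional protein, had 89.8 (lowest), 128 (median) and 219.6 (highest) CPM in refed colonic macrophages and 36.1, 75.5 and 148 CPM in fasted ones (0.72 ± 0.27, unadjusted p = 0.0158, edgeR adjusted p = 1.0). Without fasted colonic replicates 3 and 5, which held the acinar genes, the difference was 0.92 ± 0.27 (unadjusted p = 0.0044, edgeR adjusted p = 1.0). In microglia Hadha lay between 82.9 and 222 CPM in refed and between 11.3 and 134 CPM in fasted libraries (0.90 ± 0.37, unadjusted p = 0.0255), and Acadl had 24.8, 70.8 and 94.03 CPM in refed and 9.6, 26.6 and 65.4 CPM in fasted libraries (0.94 ± 0.41, unadjusted p = 0.0328). The groups overlapped for both genes. Hadhb, the other trifunctional subunit, differed by 0.71 ± 0.39 in microglia (unadjusted p = 0.0913). Without refed microglia replicates 5 and 6, which held the neutrophil genes, Hadha differed by 0.93 ± 0.44 and Acadl by 0.83 ± 0.50, with unadjusted p of 0.0544 and 0.116. Those were the only refed microglia of their cohort, so its fasted libraries, replicates 5 and 6, also dropped out of that comparison.

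Whether the refeeding effect differed among populations was tested in a fit of all 110 libraries. For any difference among the 7 populations, edgeR called 0 of 10 members, with Acadl and Hadha at an unadjusted p below 0.05, while 10.1% of 18640 genes were called. For microglia against the mean of the other 6 populations, the effect on Acadl was higher by 1.17 ± 0.31 on the log2 scale (edgeR adjusted p = 0.0378), in a contrast that called 1.04% of genes. Without refed microglia replicates 5 and 6 that difference was 1.02 ± 0.33 and no longer passed (edgeR adjusted p = 0.129). Each of the 7 populations was set against the rest in this way, and the p was adjusted within each contrast alone. The fit gives each gene 1 spread for all populations and has no term for the replicate number. With the replicate number as a block, chosen after seeing the data, the microglia difference in Acadl was 1.19 ± 0.32 (edgeR adjusted p = 0.181). For any difference among the 7 populations, Acadl had an edgeR adjusted p of 0.0937. For islet macrophages against the mean of the other 6, Cpt1a differed by -1.32 ± 0.53 and Aldh9a1 by -0.77 ± 0.27 (edgeR adjusted p = 0.367 and 0.237), in a contrast that called 0.156% of genes, so the islet effect on these genes was not shown to differ from the rest.

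Values were also averaged over populations for each replicate number, which gave 9 refed and 8 fasted numbers, without the islet libraries that pool 2 mice. The labels do not say whether a number marks the same mouse in every tissue. In limma 0 of 10 members passed after Benjamini-Hochberg adjustment, 2 had an unadjusted p below 0.05, and 0.0299% of 20081 genes passed (7.47% without adjustment). Aldh9a1 was lower by 0.23 ± 0.09 on the log2 scale over refed numbers (log2 fold change -0.23, exact permutation p within cohorts = 0.00463, limma adjusted p = 0.531), and the smallest exact p that the 2160 arrangements allow is 0.000463. Acaa2 had a log2 fold change of -0.55 ± 0.22 (exact permutation p = 0.0468, limma adjusted p = 0.561) and Cpt1a -0.36 ± 0.19 (exact permutation p = 0.131). After Benjamini-Hochberg adjustment the exact permutation p was 0.451 for Aldh9a1, 0.642 for Acaa2 and 0.767 for Cpt1a. Before adjustment, 1532 of 20081 genes had an exact permutation p below 0.05. The median log2 fold change over all genes in the limma fit was -0.04. Hadha and Hadhb, the trifunctional pair, were the 2 members above 0, at 0.19 ± 0.12 and 0.07 ± 0.12. Without microglia they were at 0.03 ± 0.12 and -0.05 ± 0.13, and without colonic macrophages Hadha was at 0.08 ± 0.12. Leaving out 1 population at a time, Aldh9a1 ran between -0.34 (without microglia) and -0.17 (without islet macrophages) and Cpt1a between -0.52 and -0.24 without the same populations.

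The members were weakly correlated from library to library. Over the 110 refeeding libraries, with the mean of each population subtracted from log2 CPM, the 45 pairs of members had Pearson correlations between -0.20 (Slc25a20 with Hadha) and 0.31 (Slc25a20 with Acadl), with 0.27 for Cpt1a with Acaa2 and 0.18 for the neighbours Hadha with Hadhb. The libraries hold the same number of cells, differ in depth and include refed and fasted mice, whose means were not subtracted, and correlations of this size are given as a description. The 3 genes most like Cpt1a in this measure, among 10461 with a mean of at least 5 CPM, were Ube2l6 (r = 0.52), Pdha1 (0.44), a subunit of pyruvate dehydrogenase, and Dazap2 (0.42), while Acaa2 ranked at 123. Over the 7 fasted population means the most alike were Xrcc4 (0.98), Irak3 (0.97) and Foxj3 (0.97), and Acaa2 (0.90) and Hadha (0.88) were the most alike members, over 7 points only.

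Of 57 further genes of fatty acid oxidation, carnitine and PPAR signalling found in the tables, 40 to 47 were tested in each refeeding comparison, and edgeR called 0 of them in each of the 7 populations. Plin2, Pdk4 and Angptl4 are named after their values were seen, as genes lower after refeeding. Of the pathway genes tested, 14 were above 0 and 30 below in peritoneal macrophages. The same counts were 13 and 28 in islet macrophages, 14 and 33 in Kupffer cells and 25 and 21 in adipose tissue macrophages. They were 24 and 23 in colonic macrophages, 18 and 22 in microglia and 16 and 24 in monocytes. Pparg and Abcd3 went the other way when averaged by replicate number (0.94 ± 0.35 and 0.69 ± 0.31, limma adjusted p = 0.527 and 0.627). Plin2, which coats lipid droplets, averaged 684 ± 219 CPM in refed and 1013 ± 57.4 CPM in fasted peritoneal macrophages (-0.60 ± 0.15, edgeR adjusted p = 0.0845), and differed by -0.63 ± 0.16 in islet macrophages, -0.68 ± 0.17 in Kupffer cells and -0.56 ± 0.21 in adipose tissue macrophages (unadjusted p = 0.00167, 0.0011 and 0.0157). Pdk4, the kinase that inhibits pyruvate dehydrogenase, had a median of 1.33 CPM in refed and 40.2 CPM in fasted peritoneal macrophages (-5.04 ± 1.37, edgeR adjusted p = 0.120), with a single refed library at 55.5 CPM above the fasted range. Angptl4, an inhibitor of lipoprotein lipase, differed by -2.93 ± 0.80 there (edgeR adjusted p = 0.121).

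In the diet experiment, Cpt1a and Aldh9a1 had higher means in STZ mice than in the other diet groups among peritoneal macrophages, but no member passed in the primary test. EdgeR's quasi-likelihood test with Benjamini-Hochberg adjustment called 0 of 10 members in each of the 9 comparisons. It called 1.29% of all genes for STZ against normal diet in peritoneal macrophages and 0% in the other 8. At an unadjusted p below 0.05 there were, for STZ against normal diet, 3 members in peritoneal macrophages (19.6% of all genes), 1 in microglia (2.15%) and 0 in islet macrophages (5.66%). For STZ against high-fat diet there were 1 in peritoneal macrophages (8.08%), 0 in microglia (4.77%) and 0 in islet macrophages (4.99%). For high-fat against normal diet there were 1 in microglia (3.16%), 0 in peritoneal macrophages (3.54%) and 0 in islet macrophages (2.42%). DESeq2 called 2 members, Cpt1a and Aldh9a1, in peritoneal macrophages for STZ against normal diet, where it called 7.18% of all genes, and 0 elsewhere; voom called 0 throughout. Comparisons that share a diet group share its libraries.

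**Figure D4:**
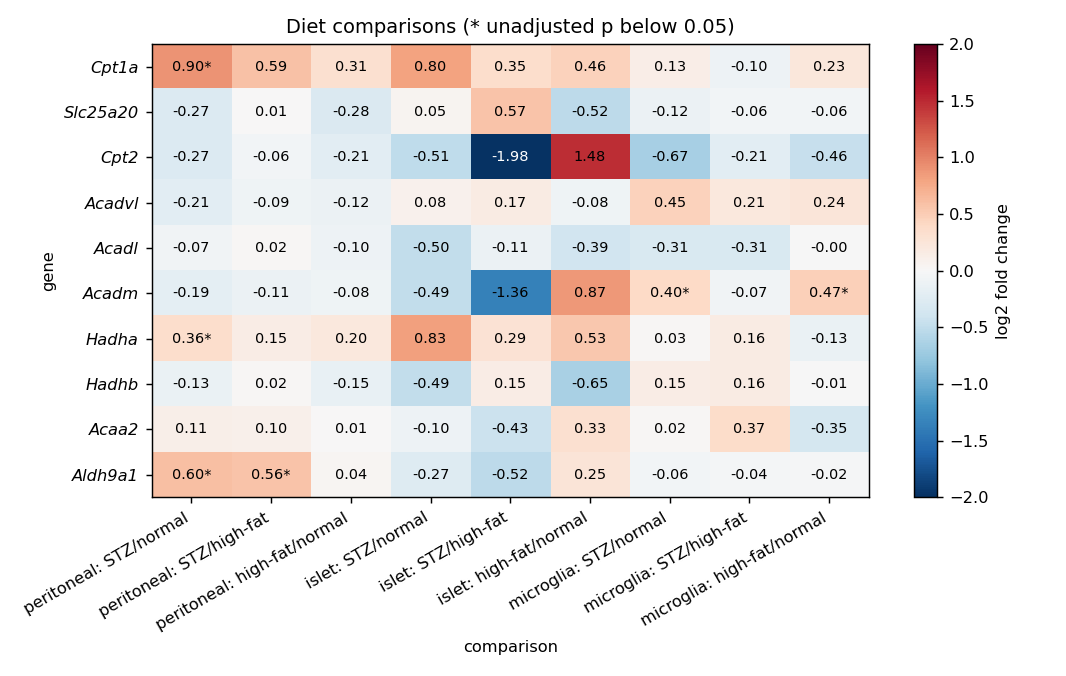
Log2 fold change of each gene in the 9 diet comparisons within islet macrophages, peritoneal macrophages and microglia (colour and printed value); an asterisk marks an unadjusted p below 0.05. The marked values are Cpt1a, Hadha and Aldh9a1 in peritoneal macrophages and Acadm in microglia, all positive.

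In peritoneal macrophages Cpt1a had 221, 251, 322, 276 and 255 CPM in the 5 STZ libraries, 208, 159.8, 201 and 206 CPM in the 4 high-fat diet libraries, and 171, 246, 44.7, 171 and 135 CPM in the 5 normal diet libraries. All STZ libraries lay above all high-fat diet ones, as for 3.26% of all genes and for 3 members, Cpt1a, Aldh9a1 and the thiolase Acaa2 (139.2 to 168.9 CPM in STZ and 119.8 to 137.2 CPM in high-fat diet libraries). With normal diet Cpt1a overlapped through 1 library. STZ against normal diet gave a log2 fold change of 0.90 ± 0.32 (unadjusted p = 0.0139, edgeR adjusted p = 0.165, between 0.0369 and 0.286 over the alternatives), and STZ against high-fat diet 0.59 ± 0.34 (unadjusted p = 0.112). The low value of 44.7 CPM is that of normal diet replicate 3, the library that stood apart, and without it the STZ against normal diet difference was 0.48 ± 0.16 (unadjusted p = 0.0127, edgeR adjusted p = 0.159). STZ replicate 3 (322 CPM) was then alone in its replicate block, so it dropped out of that comparison as well.

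Aldh9a1 had 122, 105.8, 141, 127 and 131 CPM in peritoneal STZ libraries, 84.8, 79.6, 77.7 and 90.5 CPM in high-fat diet libraries, and 100.4, 103.8, 83.3, 69.9 and 56.3 CPM in normal diet libraries. The STZ libraries lay above every high-fat diet library (3.26% of all genes) and above every normal diet library (2.58% of all genes), while high-fat and normal diet overlapped. The log2 fold change was 0.60 ± 0.18 for STZ against normal diet (edgeR adjusted p = 0.109, between 0.0309 and 0.251 over the alternatives) and 0.56 ± 0.19 for STZ against high-fat diet (edgeR adjusted p = 0.402, between 0.131 and 0.937). For high-fat against normal diet it was 0.04 ± 0.19. Hadhb was lower in every high-fat diet library (105.5 to 112.8 CPM) than in every normal diet library (113.2 to 155.8 CPM). That held for 1.04% of all genes. The log2 fold change of Hadhb was -0.15 ± 0.14 (edgeR unadjusted p = 0.303). Hadha differed by 0.36 ± 0.16 between STZ and normal diet (unadjusted p = 0.0432). It differed by 0.20 without normal diet replicate 3, where STZ replicate 3 dropped out as well. In normal diet replicate 3, Acadl (254 CPM), Acadm (143 CPM), Acaa2 (290 CPM) and Acadvl (97.4 CPM) were all above the rest of the normal diet group. Slc25a20 (58.6 CPM), Cpt2 (47.9 CPM) and Hadhb (155.8 CPM) were highest of the group there too. The median of the 10 members was -0.10 for STZ against normal diet, 0.02 for STZ against high-fat diet and -0.09 for high-fat against normal diet, with all genes between -0.01 and 0.00. The medians against normal diet include normal diet replicate 3.

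**Figure D5:**
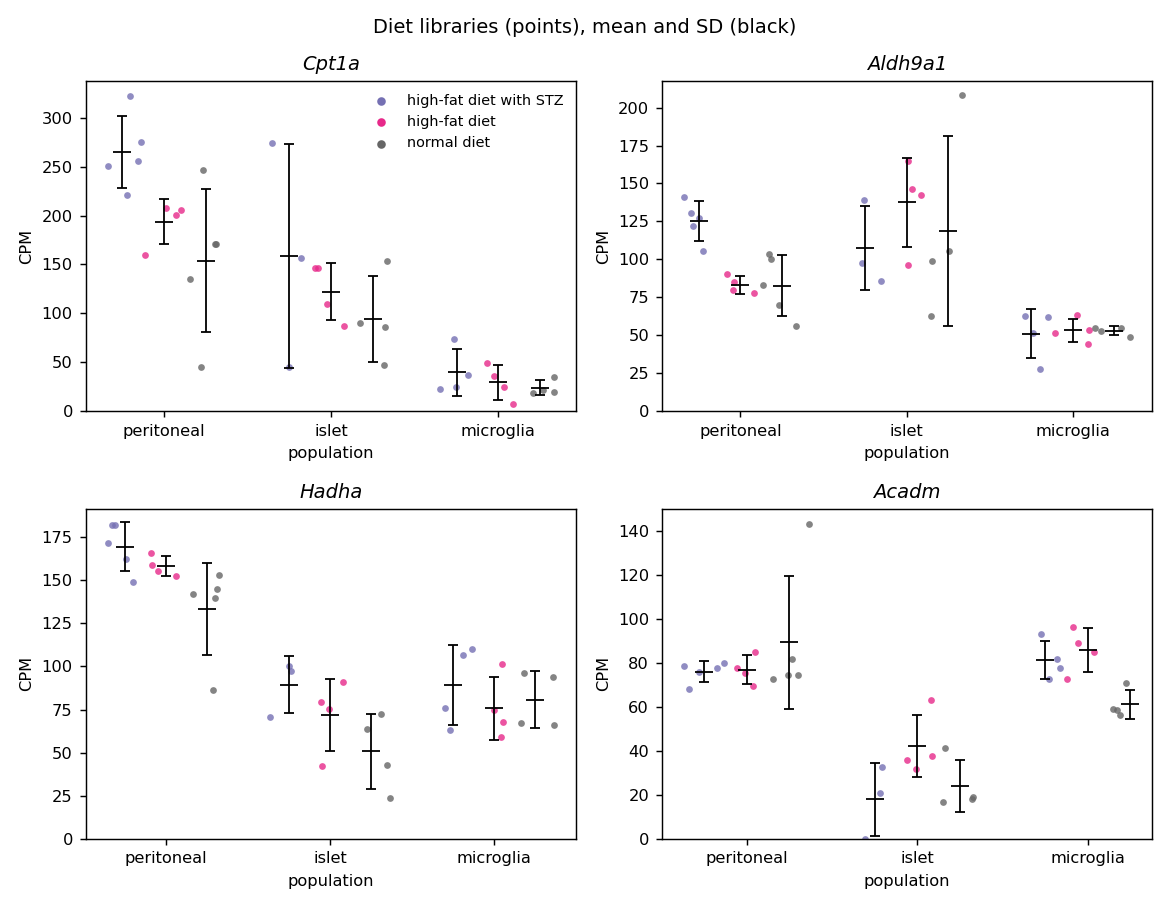
CPM of Cpt1a, Aldh9a1, Hadha and Acadm in each diet library of peritoneal macrophages, islet macrophages and microglia, with high-fat diet plus STZ at the left, high-fat diet in the middle and normal diet at the right. Peritoneal Aldh9a1 in STZ mice (105.8 to 141 CPM) lies above both other diets.

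In microglia the member with an unadjusted p below 0.05 was Acadm, the medium-chain dehydrogenase. It had 72.7, 77.7, 81.96 and 92.9 CPM in STZ libraries, 72.7, 85.1, 88.99 and 96.4 CPM in high-fat diet libraries, and 56.2, 58.4, 59.1 and 70.8 CPM in normal diet libraries. The STZ libraries all lay above the normal diet ones, which held for 0.551% of all genes, and so did the high-fat diet libraries, which held for 1.5%. High-fat against normal diet gave 0.47 ± 0.17 (unadjusted p = 0.0166) and STZ against normal diet 0.40 ± 0.18 (unadjusted p = 0.0486), each with an edgeR adjusted p of 1.0, and the normal diet libraries enter both. STZ replicate 2_9 (77.7 CPM) was the only library of its cohort, so with cohort in the fit it did not enter the fitted differences. STZ against high-fat diet gave -0.07 ± 0.18. The 6 neutrophil genes summed to 0.21 to 282 CPM in STZ, 94.06 to 2030 CPM in high-fat diet and 2.6 to 368 CPM in normal diet microglia, with high-fat diet replicates 1_2 and 1_3 the highest at 1100.0 and 2030 CPM. Without both of them Acadm differed by 0.26 ± 0.22 between high-fat and normal diet (unadjusted p = 0.263, edgeR adjusted p = 1.0). The high-fat diet libraries left in that fit came from a single cohort.

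In islet macrophages Cpt1a had 157, 44.9 and 274 CPM in STZ libraries, 86.6, 109.3, 146.1 and 146.4 CPM in high-fat diet libraries, and 154, 90.1, 46.9 and 86.5 CPM in normal diet libraries, so that the STZ group spanned the other groups. Its difference between STZ and normal diet was 0.80 ± 0.41 (unadjusted p = 0.0780), and the other islet members had standard errors of up to 2.26 on the log2 scale for Cpt2. In islets the median over all genes was itself -0.29 for STZ against high-fat diet and -0.15 for STZ against normal diet, beside 0.02 and -0.18 for the members.

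Of the 57 further pathway genes, 45 were tested in peritoneal macrophages, and 2 fell in STZ mice against normal diet, while 0 rose, where 1.29% of all genes were called; edgeR called 0 in the other 8 comparisons. Nrip1, a corepressor of nuclear receptors, averaged 26.8 ± 3.87 CPM in STZ, 40.3 ± 15.3 CPM in high-fat diet and 58.6 ± 11.7 CPM in normal diet libraries (STZ against normal diet -1.12 ± 0.21, edgeR adjusted p = 0.0272). Fabp4, a fatty acid binding protein, averaged 137 ± 74.2, 372 ± 27.2 and 497 ± 167 CPM in STZ, high-fat diet and normal diet libraries (-1.97 ± 0.40, edgeR adjusted p = 0.0331). Plin2, named after its values were seen, averaged 1305 ± 127 CPM in STZ, 1021 ± 398 CPM in high-fat diet and 680 ± 261 CPM in normal diet islet macrophages (STZ against normal diet 1.24 ± 0.15, edgeR adjusted p = 0.0578).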

How the data were processed

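Macrophages and monocytes were sorted and their polyadenylated RNA amplified by Smart-seq2, per the labels' protocols. The deposited tables hold raw counts of reads per Ensembl gene, made by the authors with Trimmomatic 0.36, STAR 2.5.1a and featureCounts on mm10, per the submitters' processing notes. Gene symbols were matched without the version of the identifier (50376 of 50686). Counts were analysed with edgeR 4.0.16 in R 4.3.3: TMM scaling, filterByExpr by treatment, a robust quasi-likelihood fit with cohort and treatment, and Benjamini-Hochberg adjustment over all genes tested, with a threshold of 0.05. In the diet islet and peritoneal tables the cohort is the replicate number, so that fit carries the replicate as a block. Limma 3.58.1 was used on values averaged per replicate number (prior count of 2), with an exact two-sided permutation test within cohorts. DESeq2 1.42.0, voom, other scaling, no filter, other blocks and left-out libraries were alternatives. The fits were tested on simulated counts with the same spread for all genes. DESeq2, simulated for peritoneal refeeding only, made more false calls than its threshold there, and the other fits did not. Depth was 7915242 to 34466388 counts per library. Within groups 443 pairs of libraries were compared and 0 were identical.

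The members and gene lists were chosen with earlier results of these data known. All 10 members are named, and other pathway genes only where they passed, at most 4 per comparison, except where stated. Genes like Cpt1a are the first 3 by Pearson correlation. Exon lengths and positions come from the annotation of mm10, and promoter windows from RefSeq. In refeeding, libraries with the same replicate number were not taken as paired, after a check of their correlations.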

Additional observations from a re-analysis of the deposited data

Results flagged for a closer look

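In 220 groups of 4 to 9 libraries, taken gene by gene, 20 had a library far from the rest of its group (9.09%), where chance gives about 1 in 20. Normal diet peritoneal replicate 3 accounts for 4 of them. Acadvl at 97.4 CPM (the others at most 57.5), Acadm at 143 CPM (at most 81.5) and Acaa2 at 290.3 CPM (at most 144.7) were high there, and Hadha at 86.5 CPM was low (the others at least 139.8). High-fat diet peritoneal replicate 2 had a low Cpt1a of 159.8 CPM (the others 201 to 208), and normal diet islet replicate 1 a high Acadm of 41.5 CPM (at most 19.2).

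Refed colonic replicate 8 was high in Acadvl (149.6 CPM, the others at most 72.9) and Acadl (167 CPM, at most 87.4). Fasted colonic replicate 5, which held acinar genes, was high in Cpt2 (122 CPM, at most 46.6) and Hadhb (123.4 CPM, at most 59.03). Fasted Kupffer cell replicate 8 was high in Hadhb (101.9 CPM, at most 64.8) and Aldh9a1 (188 CPM, at most 119.2). Refed islet replicate 9 was high in Acadvl (132 CPM), fasted islet replicate 5_6 in Acadm (129.9 CPM), fasted microglia replicate 1 in Acadvl (66.2 CPM) and refed microglia replicate 2 in Hadha (222 CPM). Refed adipose tissue replicate 8 was high in Hadhb (107.03 CPM), fasted adipose tissue replicate 5 in Acadm (166 CPM) and refed monocyte replicate 5 in Aldh9a1 (201.5 CPM). Fasted adipose tissue replicate 3 was low in Acaa2 (51.04 CPM).

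The refeeding effect on Acadl was higher in microglia than in the mean of the other 6 populations by 1.17 on the log2 scale (edgeR adjusted p = 0.0378), and by 1.02 (0.129) without refed microglia replicates 5 and 6. With a replicate block, chosen after seeing the data, the difference was 1.19 (edgeR adjusted p = 0.181). Each population had such a contrast, and the p was adjusted within each alone. The test of any difference among the populations gave Acadl an edgeR adjusted p of 0.0937.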

How the results depend on the processing

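Counts of members called were 0 in every refeeding and diet comparison under all alternatives except these: DESeq2 called 2 in islet macrophages for refeeding and 2 in peritoneal macrophages for STZ against normal diet, and no filter on low counts called 1 in islet and 1 in peritoneal macrophages for refeeding. With no filter 4 of 10 members differed among fasted populations, against 7. Over all genes, refeeding in peritoneal macrophages called 336 with DESeq2, 312 with no filter and 98 with voom, against 49; STZ against normal diet in peritoneal macrophages called 950, 710 and 246, against 171, and 30 to 301 without 1 library. Where edgeR called 0 genes, DESeq2 called 7 in monocytes, 35 in colonic macrophages, 39 in microglia, 42 in islet macrophages, 67 in Kupffer cells and 72 higher and 35 lower in adipose tissue macrophages. No filter called 6 to 143 genes in those populations. In the other 8 diet comparisons, where edgeR called 0, DESeq2 called 17 to 593 and no filter 0 to 166. With a replicate block in refeeding, 0 members were called, and 0 of 11400 genes in peritoneal macrophages; the refed and fasted libraries of a number had mean correlations of -0.017 to 0.018 in a population, over 0.1 in 1 of 48 pairs. Across tissues, libraries of 1 number and treatment had a median correlation of 0.00302 (283 pairs), against 0.00228 for other numbers of the cohort (390 pairs). With a replicate block, chosen after seeing the data, the microglia difference in Acadl was 1.193 (adjusted p = 0.181), and 3 of 18640 genes, against 1884, differed among the 7 populations. In the diet tables replicates with 1 number had mean correlations of 0.142 in peritoneal (9 of 13 pairs over 0.1) and 0.053 in islet macrophages (2 of 10). With no replicate block in the diet fits 0 members were called, with 214 genes for STZ against normal diet and 34, against 0, for STZ against high-fat diet in peritoneal macrophages. Over all populations the value of Acadl, -0.01, turned to 0.0131 without the refed libraries described as fasted, and to 0.0651, 0.045, 0.0098, 0.021 and 0.0506 without adipose tissue macrophages, colonic macrophages, islet macrophages, Kupffer cells or peritoneal macrophages, and was -0.2131 without microglia; that of Hadhb, 0.07, turned to -0.0519 without microglia, where that of Hadha was 0.0342, against 0.19. The causes were not tested. Members of low level, such as Cpt2, which was at 0 in several libraries, had wide errors; cell number was not varied within a population. The libraries left out of microglia, colonic macrophages and Kupffer cells were chosen after seeing the data.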
